A study of Mus musculus with 4 samples.

Results

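Glycolysis, lactate and pyruvate supply were examined through 35 genes, which the table of 55385 genes held under 36 gene identifiers because Aldoa had 2 of them. The genes were chosen by name for their place in the pathway, from the glucose carriers of the cell membrane to the kinases that restrain pyruvate dehydrogenase. All 36 passed the filter on low counts, and all 36 had counts in every library.

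The RNA came from granulosa cells (GCs), the somatic cells around the oocyte, of mouse preantral follicles that were grown singly in vitro for 6 days. The follicles were dissected from ovaries of young females of the Kunming strain, 12 to 14 days of age. The NT4 group (n = 2 libraries) had neurotrophin-4 (NT-4) in the medium and the Control group (n = 2) did not, while the medium of both held FSH, insulin and transferrin. The question was how NT-4 altered the transcripts of GCs. The study settled on a single concentration of NT-4 after a dose test, which the labels do not repeat. The labels do not say whether the 2 libraries of a group were separate cultures or animals. The study describes the GC samples of each group as coming from independent experiments, so the p-values measure the spread between these libraries. The cells were left after oocytes had been taken out of their complexes, and the study's methods name no sorting step.

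Glycolysis splits glucose into pyruvate, and lactate dehydrogenase turns pyruvate and lactate into each other. Oocytes use glucose poorly and depend on the cells around them for pyruvate. GCs and cumulus cells take up glucose, run it through glycolysis and pass pyruvate and lactate on, so the pathway is a known metabolic link between the somatic cells and the oocyte.

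The libraries held 49520092 (Control 1), 73743901 (Control 2), 61980073 (NT4 1) and 78704020 counts (NT4 2), so the library numbered 2 was the deeper one of each group. One read pair was taken as 4 counts, because 45.4% to 46.2% of low counts lay at 4, 8 or 12. The other low counts did not, so this unit is approximate. On that unit a gene without a count could lie at up to 3 read pairs, or 0.152 to 0.242 CPM by library. CPM is the count as a share of the library's normalized total, and the limit covers counting error only. All 12 granulosa markers averaged at least 1 CPM, with a summed level of 11596 to 16438 CPM. The oocyte markers summed to 77.6 to 112.1 CPM and those of theca and stroma to 556 to 823 CPM. Macrophage markers stayed at 1.38 to 3.13 CPM in sum, endothelial ones at 19.3 to 28.3 CPM and erythroid ones at 3.23 to 5.60 CPM. The 35 genes together took 0.718% of the counts of Control 1, 0.839% of Control 2, 0.735% of NT4 1 and 0.985% of NT4 2. These shares leave out counts given to near-identical copies of the genes. In Control 1 the copies of Gapdh held 81077 counts and those of Eno1 25618, beside 355472 for the 35 genes. In bulk RNA, fewer cells of a type and less RNA per cell cannot be told apart.

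Pfkfb3 stood apart from the other 35 identifiers, being lower in both NT4 libraries, at 0.480 times the Control level in the fit. Most enzymes of lower glycolysis, with lactate dehydrogenase A and the lactate exporter Slc16a3, were instead highest in NT4 2 and next highest in Control 2. Of the pyruvate dehydrogenase complex, Pdha1 and Dlat each had similar levels in all 4 libraries. Pdhb was highest in NT4 2, and Dld was lower in the libraries numbered 2. Of 36 identifiers, 0 passed an adjusted p of 0.05 in edgeR's quasi-likelihood test, as did 0 of all 19259 genes tested (0%). At an unadjusted p under 0.05 there were 2, Pfkfb3 and Eno2, where 383 of all genes tested (1.99%) lay under that threshold. With the library number as a block in the fit there were 4, with Pgk1 and Pdk1 added, where 3.01% of all genes did, though the labels state no pairing. The members' count of 2 became 11 without NT4 1, where 4.24% of all genes lay under the threshold, and 1 without Control 1, Control 2 or NT4 2 (2.71%, 3.23% and 3.63% of all genes). After adjustment the DESeq2 Wald test and edgeR's exact test each called 1 of 36, Pfkfb3. The former called 62 of the 24395 genes to which it gave an adjusted p (0.254%) and the latter 57 of 19259 (0.296%). In limma voom 0 of 36 passed, as did 0 of all genes. The study's criterion, an unadjusted p under 0.05 together with a fold above 2 or under 0.5, was met by 1 of 36, Pfkfb3, and by 1.08% of all genes tested. The median log2 fold change of NT4 over Control was 0.12 over the 36 identifiers, with 28 above 0 and 8 below, against 0.0045 over all genes tested, of which 51% lay above 0. Without NT4 2 that median was −0.051.

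**Figure D1:**
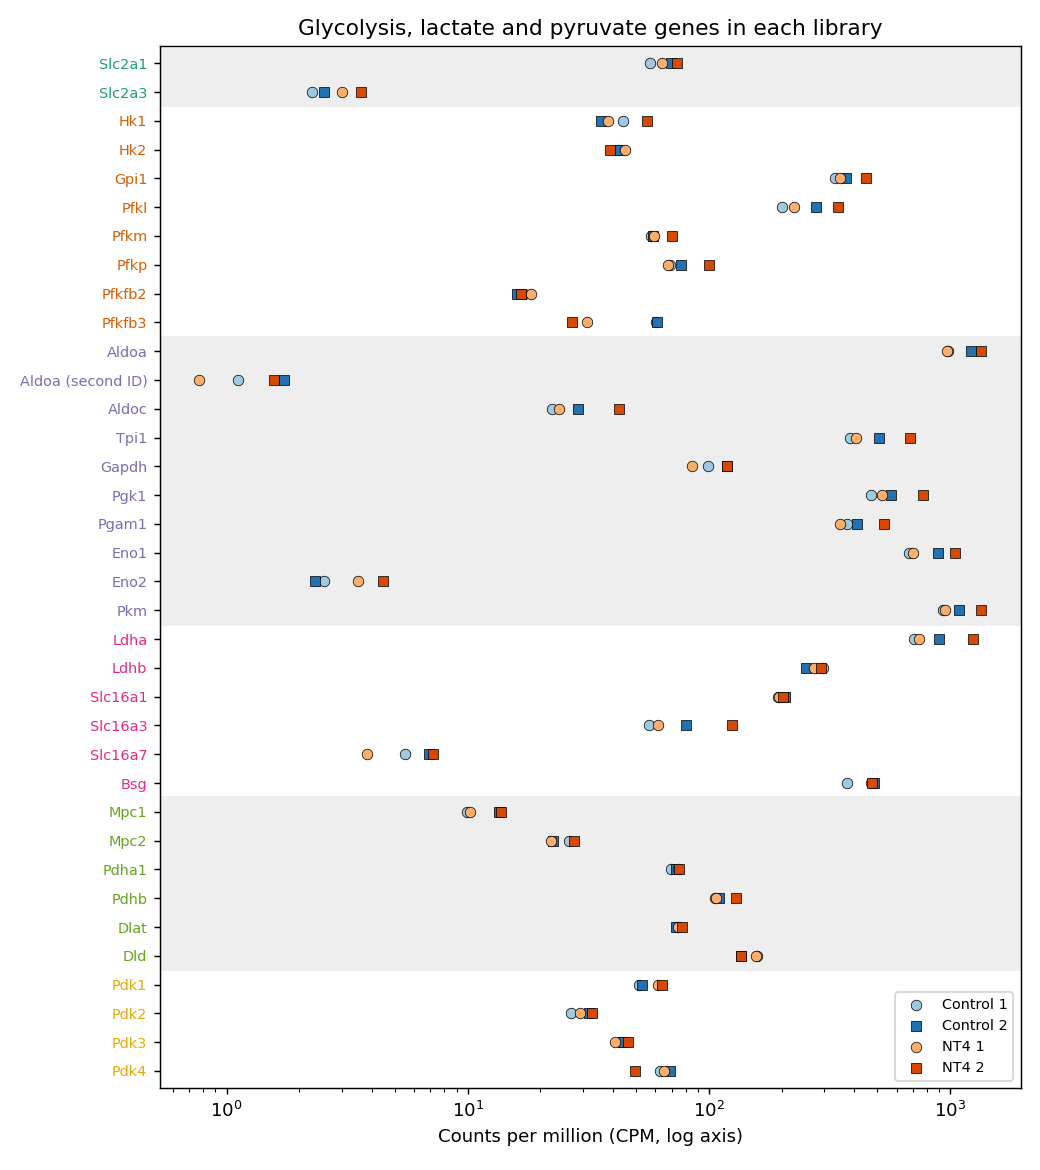
Level of each gene in each library, in CPM on a log axis, with genes ordered and coloured by role. Circles are the libraries numbered 1 and squares those numbered 2, in blue for Control and orange for NT4. The 2 Control values of Pfkfb3 lie at 60.5 and 61.2 CPM, to the right of both NT4 values, and the squares of Ldha, Tpi1 and Slc16a3 lie to the right of the circles.

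Promoter windows are shown for Pfkfb3, the gene that met the criterion, and for Ldha, Pgk1 and Slc16a3, whose levels moved with the library number. The last 3 were chosen after the motif search, among genes with a match. Tpi1, Pfkl and Eno1 were also higher in the libraries numbered 2, and none of their windows, nor the second window of Ldha (chr7:46846832-46847131, plus strand), held one. The windows were taken from RefSeq on GRCm38.p6 and run from 250 bases before to 50 bases after a gene start. They are written 5′ to 3′ on the strand of the gene. Capitals mark ACGTG, searched on both strands (CACGT on the strand shown), which is the core of the hypoxia response element and overlaps the E-box CACGTG. Positions are those of the first base of a match, counted from the gene start, with the base just before it as −1.

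The upstream start of Pfkfb3 (chr2:11553880-11554179, minus strand) held 1 match, at −60, and the downstream start (chr2:11502041-11502340, minus strand) held 1 CACGTG at −53, which counts on both strands.
Pfkfb3, upstream start: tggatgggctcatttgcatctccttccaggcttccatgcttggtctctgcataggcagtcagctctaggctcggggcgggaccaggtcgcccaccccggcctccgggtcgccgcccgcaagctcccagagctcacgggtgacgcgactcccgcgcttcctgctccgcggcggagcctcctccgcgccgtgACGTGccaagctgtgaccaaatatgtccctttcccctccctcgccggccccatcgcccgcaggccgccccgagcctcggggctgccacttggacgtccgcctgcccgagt
Pfkfb3, downstream start: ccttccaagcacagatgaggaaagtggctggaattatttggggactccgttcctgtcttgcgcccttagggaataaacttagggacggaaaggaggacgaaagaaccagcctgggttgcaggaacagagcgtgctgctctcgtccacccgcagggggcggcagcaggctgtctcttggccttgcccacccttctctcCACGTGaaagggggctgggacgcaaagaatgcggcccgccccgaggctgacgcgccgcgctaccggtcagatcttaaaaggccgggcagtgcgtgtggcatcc

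The upstream window of Ldha (chr7:46845554-46845853, plus strand) held 5 matches, of which 4 lay in 2 CACGTG blocks at −145 and −48 and the last at −34. The windows of Slc16a3 (chr11:120948817-120949116, plus strand) and Pgk1 (chrX:106186850-106187149, plus strand) held 2 matches each, at −27 and −14 in the former and at −150 and −131 in the latter.
Ldha: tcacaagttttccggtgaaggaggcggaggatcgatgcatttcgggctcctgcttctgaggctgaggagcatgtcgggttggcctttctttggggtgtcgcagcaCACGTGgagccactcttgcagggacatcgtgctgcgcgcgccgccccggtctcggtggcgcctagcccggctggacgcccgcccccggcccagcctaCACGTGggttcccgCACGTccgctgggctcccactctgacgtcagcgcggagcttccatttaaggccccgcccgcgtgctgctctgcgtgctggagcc
Slc16a3: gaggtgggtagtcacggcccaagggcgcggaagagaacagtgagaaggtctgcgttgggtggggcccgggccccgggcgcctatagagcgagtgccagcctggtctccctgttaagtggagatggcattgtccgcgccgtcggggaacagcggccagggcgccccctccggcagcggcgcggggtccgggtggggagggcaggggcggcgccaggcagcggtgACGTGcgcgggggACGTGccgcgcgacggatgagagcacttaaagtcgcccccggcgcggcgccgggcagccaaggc
Pgk1: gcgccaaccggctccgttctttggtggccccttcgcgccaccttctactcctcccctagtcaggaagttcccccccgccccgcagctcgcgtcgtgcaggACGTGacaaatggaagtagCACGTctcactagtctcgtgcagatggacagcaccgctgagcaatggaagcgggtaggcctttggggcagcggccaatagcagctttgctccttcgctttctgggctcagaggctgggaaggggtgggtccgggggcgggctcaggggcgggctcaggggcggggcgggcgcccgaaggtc

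Of the 35 genes, 32 matched an entry of that promoter table, with 49 windows. ACGTG lay in 22 of these 49 windows (44.9%), against 19.6% of all 32851 windows. By gene, 18 of 32 (56.2%) had it in at least 1 window, against 21.8% of all 27025 genes. CACGTG lay in 6 of the 49 windows (12.2%), against 7.15% of all. The windows and genes used for comparison were all those of that table, not matched to the members for base composition or expression. Windows of one gene can overlap, so a match can count more than once by window, as for Aldoa. A match describes the letters of a window and is not a measured site.

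Glucose enters through facilitative carriers of the Slc2a family. Slc2a1, the ubiquitous carrier GLUT1, was at 57.2, 69.8, 64.1 and 73.9 CPM, with the Control libraries first, by number, and then the NT4 libraries, the order used for all values by library from here on. Slc2a3, the high-affinity carrier GLUT3, was at 2.27, 2.54, 2.9998 and 3.61 CPM, with both NT4 libraries above both Control libraries (log2 fold change 0.46, SE 0.28). Counted per length, Slc2a1 made up 97.7% to 98.3% of the pair in every library. The ratio of Slc2a3 to Slc2a1 was 1.26-fold higher in NT4, with no overlap of the groups, and the exact two-sided permutation p was 0.333, the smallest that 2 libraries against 2 allow. The same p is the smallest possible for every ratio reported here.

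Hexokinases trap glucose in the cell as glucose 6-phosphate, which Gpi1 turns into fructose 6-phosphate. Hk1 was at 43.9, 35.8, 38.02 and 55.6 CPM, highest in NT4 2 and lowest in Control 2. Hk2, the insulin-responsive form, was at 42.0, 42.3, 44.9 and 38.8 CPM, with overlapping groups (log2 fold change −0.01, SE 0.14). Per length, Hk2 held 57.8%, 62.8% and 62.8% of the pair in the first 3 libraries but 49.955% in NT4 2. That order depended on the length used, since with the longest transcript Hk2 held 35.1% to 47.8% and Hk1 was the larger form in every library. Gpi1 was at 333, 369, 351 and 449 CPM, and the Control 2 value lay above that of NT4 1.

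Phosphofructokinase commits the sugar to glycolysis, and its liver form Pfkl was the most abundant form per length, with 57.3% to 64.5% of the 3 genes. Pfkl was at 200.1, 279.1, 224.4 and 344.5 CPM. Pfkm, the muscle form, was at 57.5, 58.5, 59.3 and 69.97 CPM, and Pfkp, the platelet form, at 68.9, 76.9, 67.4 and 100.5 CPM. Both NT4 values of Pfkm exceeded both Control values, whereas for Pfkl and Pfkp the groups overlapped. Exons of Pfkm share bases with another annotated gene on the same strand, and those of Pfkp with a gene on the opposite strand. The shares of the 3 forms overlapped between groups.

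The bifunctional enzymes of the Pfkfb family make and break down a fructose bisphosphate that is the strongest activator of phosphofructokinase, and Pfkfb3 is the form with the highest kinase activity. Pfkfb3 (ENSMUSG00000026773, GRCm38 chromosome 2, 11471433 to 11554077, minus strand) was at 60.5 and 61.2 CPM in Control and at 31.3 and 27.0 CPM in NT4. Both NT4 libraries were lower, and the Control values differed by far less than the groups did. The mean of Control was 60.8 ± 0.508 CPM and that of NT4 29.2 ± 3.03 CPM (SD, n = 2), a log2 fold change of −1.06 (SE 0.14) with an unadjusted p of 0.000523 and an adjusted p of 0.667 in edgeR's quasi-likelihood test. Its p ranked 14th among the 19259 genes. Within the libraries numbered 1 the level in NT4 was 0.518 times that in Control, and within those numbered 2 it was 0.442 times.

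The call for Pfkfb3 depended on the tool. Its adjusted p was 2.14e-05 by DESeq2's Wald test and 0.00132 by the exact test of edgeR, but 0.463 in limma voom and 0.199 with edgeR's quasi-likelihood test and no filter on low counts. Leaving out 1 library at a time gave log2 fold changes from −1.18 to −0.96, and without NT4 2 the value of −0.96 no longer passed the fold of 2.

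Pfkfb2, the heart form of the same enzyme, was at 17.1, 16.1, 18.3 and 16.7 CPM, with overlapping groups, and its exons share bases with another gene on the same strand. Pfkfb3 made up 77.2% and 78.5% of this pair per length in Control and 62.2% and 60.8% in NT4. The other two forms, named after their values were seen, had both NT4 libraries below both Control libraries. Pfkfb4 was at 11.7, 12.7, 7.96 and 10.5 CPM (log2 fold change −0.41, SE 0.21) and Pfkfb1 at 5.08, 4.80, 4.09 and 4.14 CPM (−0.26, SE 0.22). Of all 4 forms per length, Pfkfb3 was 57.0% and 57.3% in Control and 44.5% and 39.5% in NT4. The ratio of Pfkfb3 to Pfkfb2 differed by −1.14 on the log2 scale, against a pooled SD of 0.0682 between libraries of a group, and the exact permutation p was 0.333. Sums of theca and stroma markers were also apart by group, at 556 and 600.1 CPM in Control and 823 and 689 CPM in NT4. Of those 10 markers, 3 had an unadjusted p under 0.05, where 1.99% of all genes tested did. The part of these markers in the Pfkfb3 difference was not tested. The summed granulosa markers overlapped between groups (12874, 15099, 11596 and 16438 CPM).

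**Figure D2:**
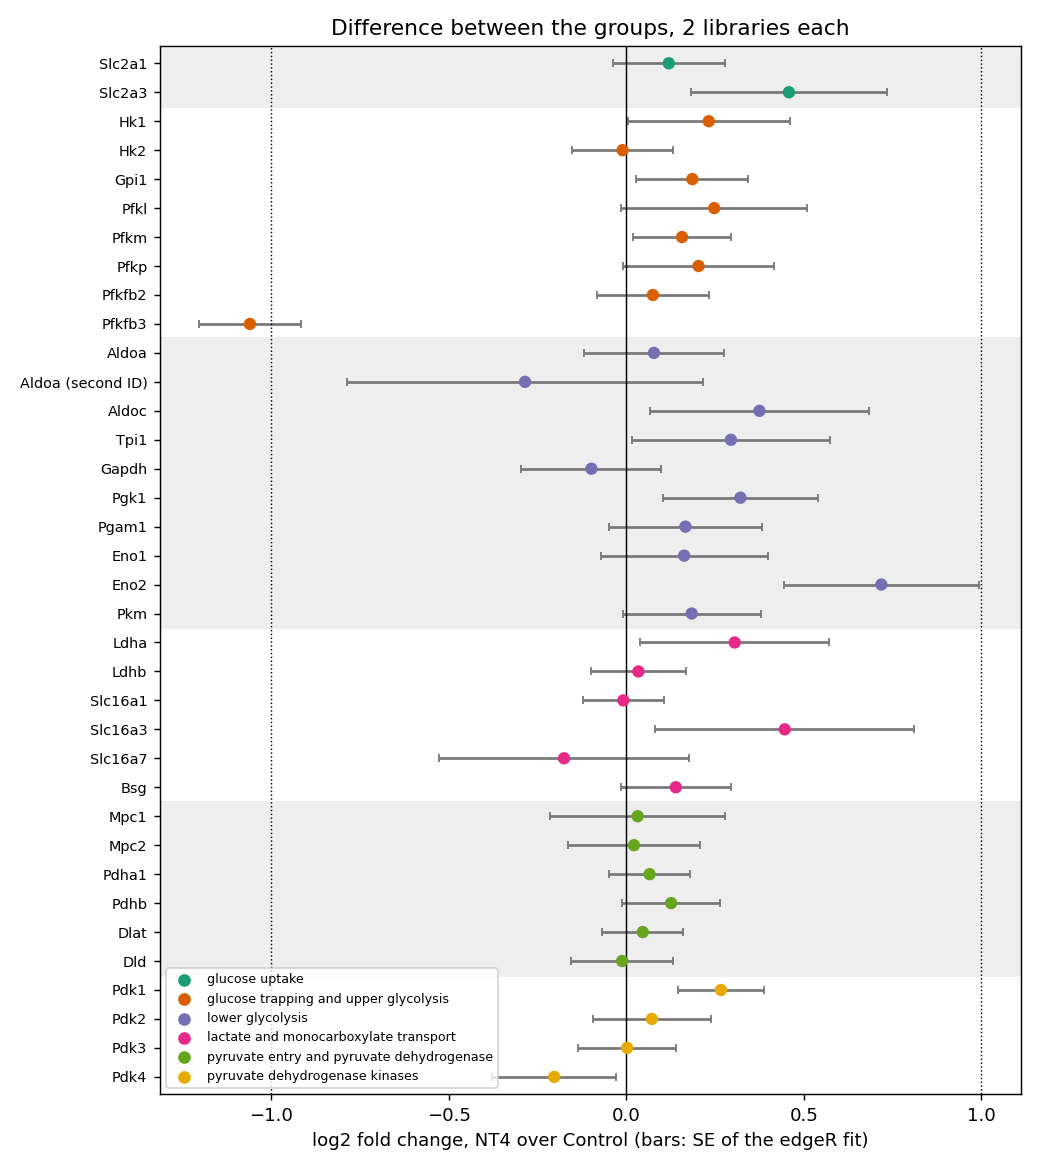
Log2 fold change of NT4 over Control for each identifier, with the standard error of the edgeR fit and dotted lines at a fold of 2 in each direction. Pfkfb3 lies at −1.06, past the left dotted line, and every other identifier lies between −0.29 and 0.72.

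In lower glycolysis, aldolase cleaves the sugar, and the steps down to pyruvate kinase recover ATP. Per length, Aldoa was listed as the most abundant of the 35 genes, at 387.95 ± 63.5 CPM per kb of exon (SD over the 4 libraries), with Ldha at 271 ± 73.2 CPM per kb. Ldha came next on the mean over the libraries, but in NT4 1 it was at 224.8 CPM per kb, below Bsg (258.5) and Pgk1 (232.5). This ranking leaves out counts given to near-identical copies, which are described below for Gapdh and Eno1. Summed with its copies, Gapdh was at 1715 to 2642 CPM, not counted per length, and above Aldoa in every library. The rank of Aldoa therefore depends on how reads were assigned to copies. Aldoa was at 978, 1219.9, 973 and 1346 CPM, and a second identifier of the same name (ENSMUSG00000114515) held 0.770 to 1.74 CPM. Aldoc, the aldolase known from brain, was at 22.4, 28.6, 23.8 and 42.4 CPM. The libraries numbered 2 were the higher ones in each group for both genes. Aldoc took 2.01% and 2.05% of the pair in Control and 2.14% and 2.73% in NT4, with no overlap of the groups.

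Tpi1, which interconverts the triose phosphates made by aldolase, was at 385, 506, 408 and 685 CPM. Pgk1 (ENSMUSG00000062070, chromosome X, 106187100 to 106203699, plus strand), the first ATP-making step, was at 468, 567, 522 and 771 CPM. Pgam1, the phosphoglycerate mutase, was at 372, 412, 351 and 529.9 CPM. In all 3 the highest level was in NT4 2 and the next in Control 2, so the groups overlapped. Log2 fold changes were 0.29 (SE 0.28), 0.32 (SE 0.22) and 0.17 (SE 0.21), and without NT4 2 they were −0.13, 0.01 and −0.16.

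Enolase makes phosphoenolpyruvate, and pyruvate kinase makes pyruvate from it. Eno1, the form of most tissues, was at 674, 888, 702 and 1046 CPM, and Pkm, the pyruvate kinase of most tissues, at 935, 1086, 948 and 1348 CPM. Both followed the order of Tpi1. Exons of Pkm share bases with another annotated gene on the same strand. Eno2 (ENSMUSG00000004267, chromosome 6, 124760053 to 124769673, minus strand), the enolase known from neurons, was at 2.53 and 2.32 CPM in Control and 3.50 and 4.48 CPM in NT4. Both NT4 libraries lay above both Control libraries, with a log2 fold change of 0.72 (SE 0.28), an unadjusted p of 0.0447 and an adjusted p above 0.99 in edgeR's quasi-likelihood test. The unadjusted p lay above 0.05 in 6 of the alternatives with all libraries, at up to 0.0714 in edgeR's exact test. It was 0.102 without Control 1, 0.163 without Control 2 and 0.172 without NT4 2, by the same quasi-likelihood test. Eno2 made up no more than 0.566% of the enolase pair per length, so Eno1 set the total.

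Gapdh, the dehydrogenase between aldolase and Pgk1, was listed at 99.4, 119, 85.2 and 118 CPM, far below its neighbours in the pathway. The annotation held 186 genes that matched a Gapdh transcript at 90% identity or more, of which 135 had counts. Gapdh itself had 5.79%, 5.48%, 4.89% and 4.48% of the counts of this whole group. Of the copies, 12 exceeded 5% of the Gapdh count, all annotated as processed pseudogenes. They were Gm13394, Gm7336, Gm5559, Gm2606, Gm12033, Gm12070, Gm14760, Gm12671, Gm10359, Gm2451, Gm10284 and Gm2574. Gm13394 alone was listed at 539, 710.5, 569 and 839.6 CPM.

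A stretch of Gapdh is shown beside Gm13394, the copy with the most counts, because the copy differed from the Gapdh transcript at 1 of 1000 bases, A346C, counted from the first base of the copy. The stretch of 61 bases lies across exons 3 and 4 of the coding sequence of Gapdh (GRCm38, chr6:125162986-125163144, minus strand) and at chr2:28934234-28934294, minus strand, in the copy. Both are written 5′ to 3′ in the sense of Gapdh, and the capital marks the base that differs.
Gapdh: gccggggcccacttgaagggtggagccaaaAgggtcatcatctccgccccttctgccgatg
Gm13394: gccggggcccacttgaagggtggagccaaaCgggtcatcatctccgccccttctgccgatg
The copies Gm10359 and Gm12671 had 0 differences from Gapdh over 1002 bases.

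Summed over Gapdh and its copies, the level was 1715, 2161.5, 1742 and 2642 CPM. On this sum the order of the libraries was that of Tpi1 and Ldha, and the log2 fold change moved from −0.10 for the gene alone to 0.18. The direction of Gapdh thus differs between the listed gene and the sum, and its value is uncertain. Eno1 held 55.2% to 59.5% of the sum with its copies, mainly Gm4735 and Eno1b, and Mpc1 54.2% to 61.6% of the sum with Mpc1-ps. Pgam1 held 88.9% to 90.2% of the sum with its copies, mainly Pgam1-ps2. The levels of these 4 genes are therefore uncertain, and their groups overlapped with or without the copies.

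**Figure D3:**
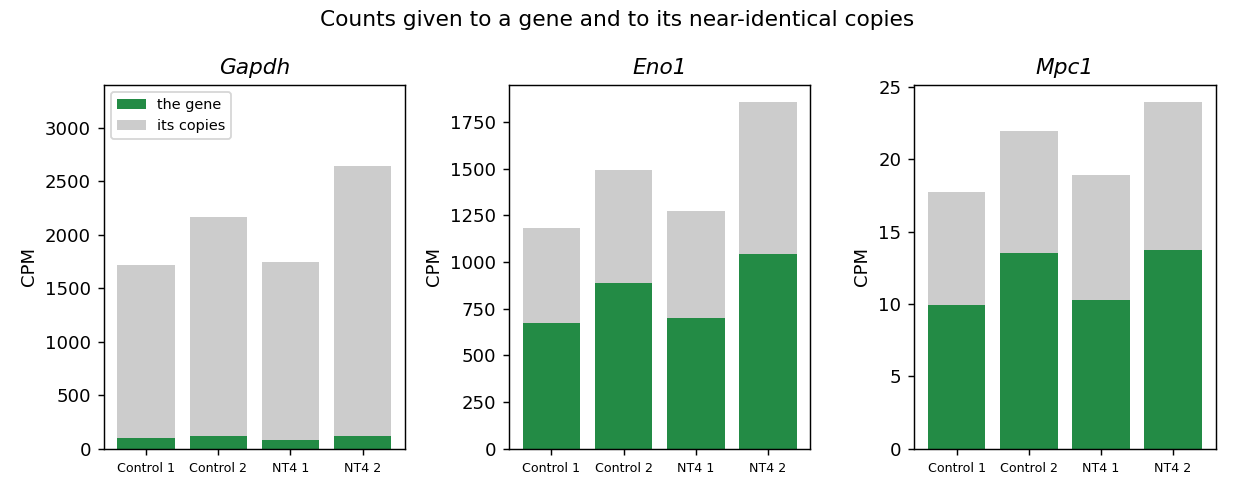
CPM given to Gapdh, Eno1 and Mpc1 (green) and to all of their near-identical copies together (grey) in each library. The green part of the Gapdh bars is 4.48% to 5.79% of the whole bar, against 55.2% to 59.5% for Eno1 and 54.2% to 61.6% for Mpc1.

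Lactate dehydrogenase exists as tetramers of Ldha, the form linked with lactate production, and Ldhb, the form linked with lactate use. Ldha (ENSMUSG00000063229, chromosome 7, 46841475 to 46855627, plus strand) was at 709.6, 896, 744 and 1240.1 CPM. Ldhb was at 298, 252, 272 and 290.5 CPM. Ldha was highest in NT4 2 and next in Control 2, and Ldhb was lowest in Control 2. Ldhb took 46.9%, 37.2%, 43.5% and 33.1% of the pair per length, so its share was lower in the library numbered 2 of each group, while the groups overlapped. The log2 fold change of Ldha was 0.31 (SE 0.27) and turned to −0.11 without NT4 2.

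Lactate and pyruvate cross membranes through monocarboxylate transporters with the help of Bsg, the chaperone basigin. Slc16a1, the carrier MCT1, was at 193, 207, 196 and 202 CPM. Slc16a3 (ENSMUSG00000025161, chromosome 11, 120948480 to 120960868, plus strand), the lactate exporter MCT4 of glycolytic cells, was at 56.5, 80.3, 61.5 and 124.9 CPM. Slc16a7, the high-affinity carrier MCT2, was at 5.52, 6.90, 3.83 and 7.16 CPM. Slc16a1 was nearly level, whereas Slc16a3 was 1.42-fold higher in Control 2 than in Control 1 and 2.03-fold higher in NT4 2 than in NT4 1. The share of Slc16a3 among the 3 carriers per length was 19.4%, 24.2%, 20.6% and 33.7%. Its log2 fold change between groups was 0.45 (SE 0.36), and −0.16 without NT4 2. Bsg was at 373, 483, 469 and 473 CPM, lower in Control 1 than in the other libraries.

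Pyruvate enters the mitochondrion through the carrier formed by Mpc1 and Mpc2. Mpc1 was at 9.92, 13.5, 10.3 and 13.7 CPM and Mpc2 at 26.4, 22.6, 22.1 and 27.6 CPM, with overlapping groups. The pyruvate dehydrogenase complex then makes acetyl-CoA with its subunits Pdha1, Pdhb, Dlat and Dld. Pdha1 was at 69.9, 72.7, 74.2 and 75.0 CPM, and Dlat at 73.9, 73.0, 74.7 and 77.0 CPM. In both of them the NT4 libraries lay just above the Control libraries, with log2 fold changes of 0.07 (SE 0.11) and 0.05 (SE 0.11). Pdhb was at 105.9, 110.6, 107.0 and 129.4 CPM. Dld, which serves other dehydrogenase complexes too, was at 158, 136, 157 and 136 CPM, lower in the libraries numbered 2.

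The 4 pyruvate dehydrogenase kinases switch the complex off by phosphorylation. Pdk1 (ENSMUSG00000006494, chromosome 2, 71873224 to 71903858, plus strand) was at 51.3 and 52.8 CPM in Control and at 61.5 and 63.7 CPM in NT4. Both NT4 libraries were higher, by 1.20-fold within the libraries numbered 1 and 1.21-fold within those numbered 2. The log2 fold change was 0.27 (SE 0.12), with an unadjusted p of 0.0756 in edgeR's quasi-likelihood test, and leaving out 1 library at a time gave 0.24 to 0.29. Pdk2 was at 26.8, 32.0, 29.1 and 32.7 CPM, Pdk3 at 42.9, 44.0, 40.9 and 46.1 CPM, and Pdk4, the kinase induced by fasting, at 62.9, 69.2, 65.2 and 49.5 CPM. Pdk4 was lowest in NT4 2, and its log2 fold change of −0.20 (SE 0.17) was −0.02 without that library.

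Per length, Pdk4 and Pdk3 were the main kinases, each with 27.8% to 36.6% of the 4 genes. With the longest transcript as the length, Pdk4 was instead below Pdk2 in NT4 2 (22.6% against 23.1%). Pdk1 took 13.3% and 12.6% of the total in Control and 15.3% and 16.2% in NT4. The groups did not overlap for this share, which was 1.22-fold higher in NT4 (exact permutation p 0.333). The share of Pdk4 was 36.004% and 36.6% in Control and 35.96% and 27.8% in NT4, so the difference between groups lay almost wholly in NT4 2.

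**Figure D4:**
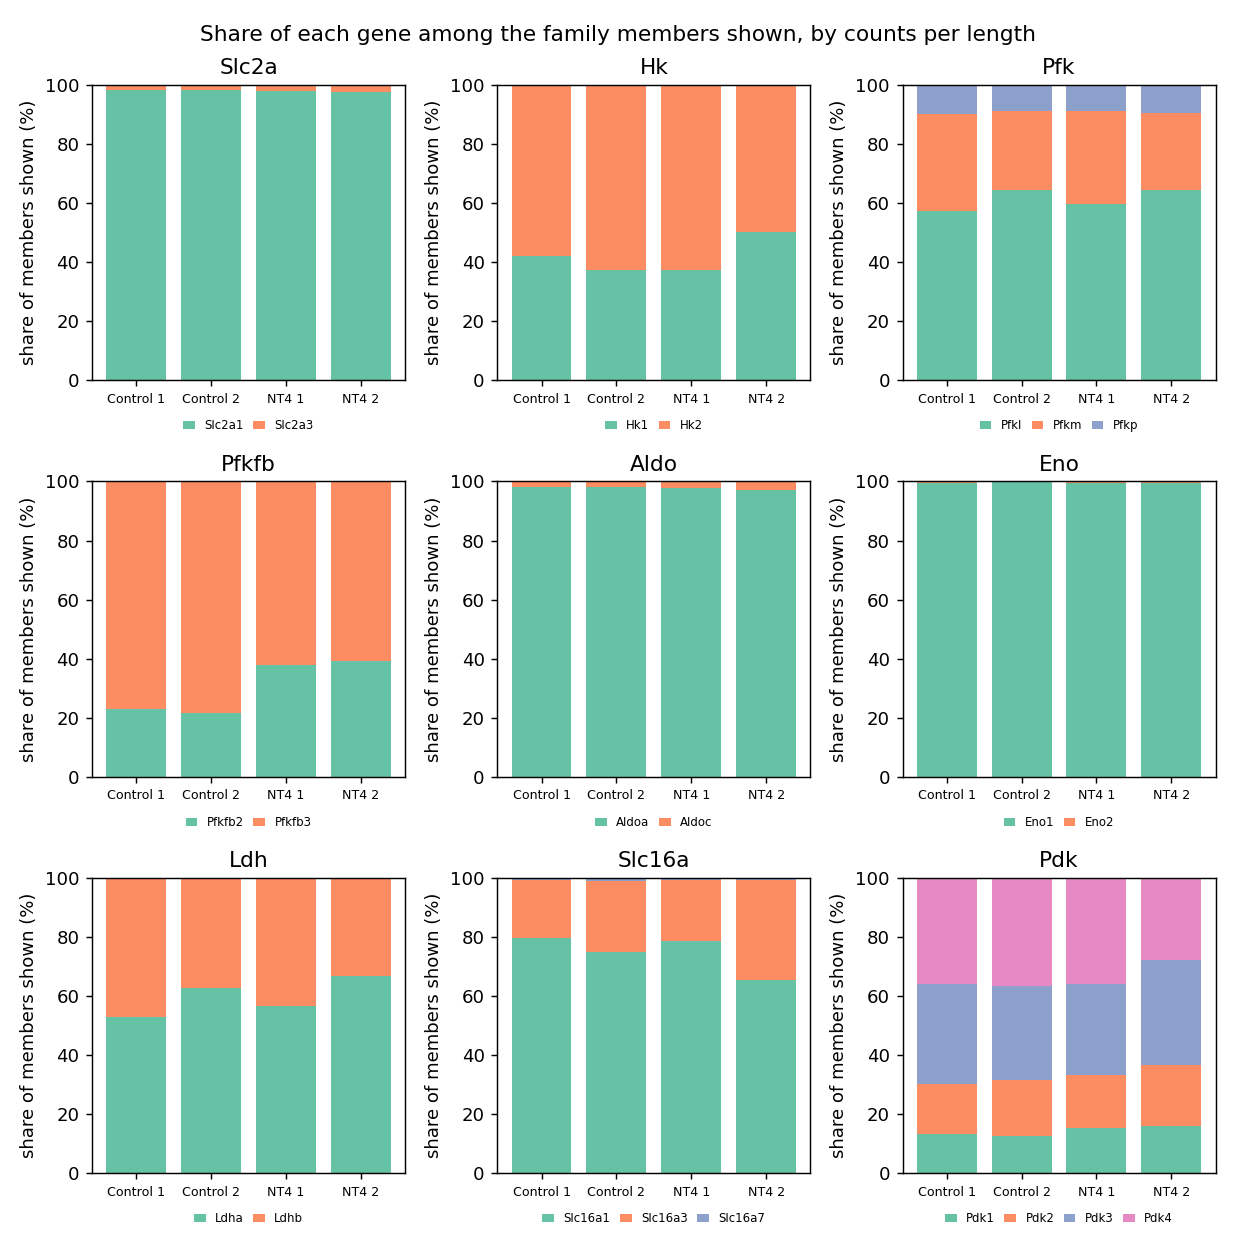
Share of each gene among the members of its family that are shown, in each library, in percent of their summed counts per length. Pfkfb1 and Pfkfb4 are not among them. The share of Pfkfb3 is 77.2% and 78.5% in the Control bars and 62.2% and 60.8% in the NT4 bars, and the share of Ldhb is smaller in the libraries numbered 2.

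Across the 36 identifiers, 6 had both NT4 libraries above both Control libraries (Slc2a3, Pfkm, Eno2, Pdha1, Dlat and Pdk1), where 13.4% of all genes tested did. Pfkfb3 was the 1 with both NT4 libraries below, where 12.7% of all genes did. These counts were 7 in all under every scaling and copy sum that was tried.

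The members were then compared by library number. In 26 of 36 identifiers the library numbered 2 was above the library numbered 1 in both groups, where 31.8% of all genes tested were. It was below in both groups in 2 of 36 (Pfkfb2 and Dld), where 30.9% of all genes were. Of lower glycolysis, 9 of 10 identifiers were higher in the libraries numbered 2 (all but Eno2), as were 5 of 6 of the lactate and transport genes (all but Ldhb). The median difference of the members was 0.15 on the log2 scale from Control 1 to Control 2 and 0.34 from NT4 1 to NT4 2, against −0.00060 and 0.011 over all genes tested.

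Within the libraries numbered 1 the members' median difference of NT4 over Control was 0.05, and within those numbered 2 it was 0.22. Without NT4 2, 24 of the 36 identifiers were lower in NT4 and 12 higher, and 18 of the 28 that were higher had turned lower. The libraries numbered 2 were also the deeper ones, and their summed granulosa markers were higher in each group, with 3.56% and 4.02% of counts from mitochondrial genes against 4.36% and 3.997% in the libraries numbered 1. The part of depth and of these markers in the pattern was not tested. Of the 12 granulosa markers, 9 were higher in the library numbered 2 of both groups and 3 were lower in both, namely Amh (299, 151, 391 and 91.5 CPM), Amhr2 and Kitl, named after their values were seen. The study describes independent experiments with the groups cultured side by side, but the labels do not say whether a number marks the same experiment in both groups.

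**Figure D5:**
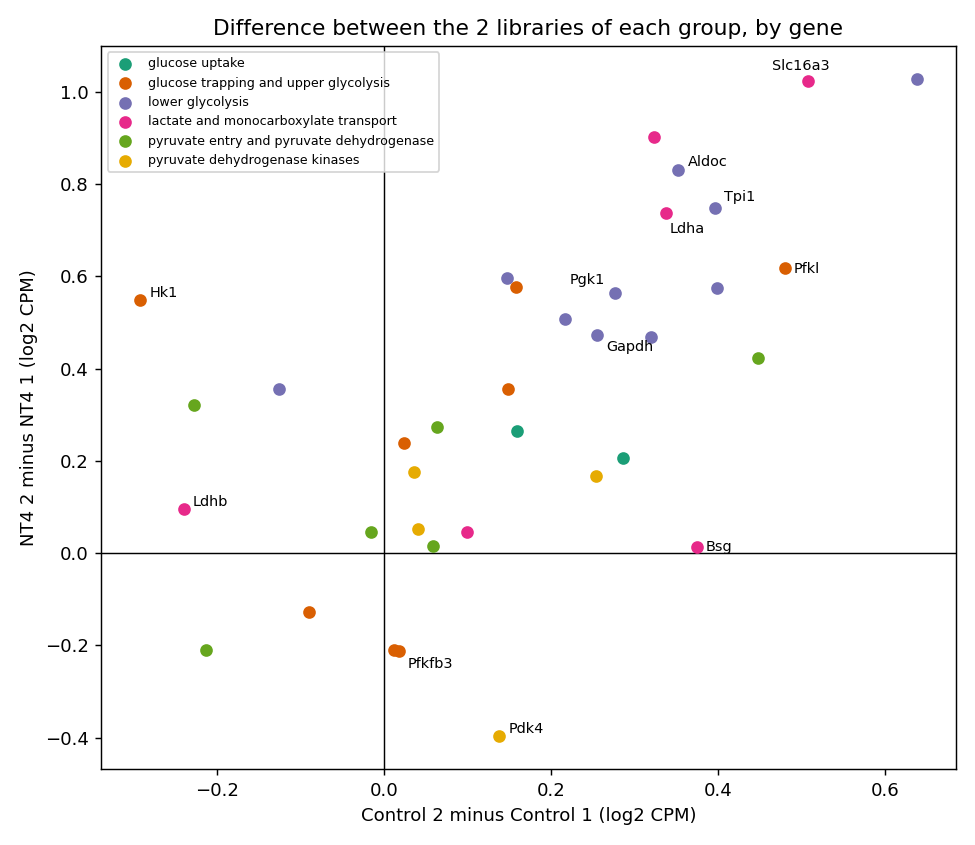
Difference between the 2 libraries of each group for each identifier, in log2 CPM, with Control on the horizontal and NT4 on the vertical axis and colours for role. To the upper right of the lines at 0 lie 26 of 36 identifiers, among them Ldha, Tpi1, Aldoc, Pfkl and Slc16a3, while Pfkfb3 and Pdk4 lie below the horizontal line.

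The neighbouring genes of the pathway gave 0 calls at an adjusted p of 0.05 in edgeR's quasi-likelihood test, where 0 of all 19259 genes tested passed. Results of other tools are given below for Emb alone. Of 30 paralogues and partners of the members, 24 were tested, with a median log2 fold change of −0.07. Of these, 1 met the study's criterion, where 1.08% of all genes tested did. It was the 1 gene of all 6 neighbouring lists with an unadjusted p under 0.05, where 1.99% of all genes tested lay under that threshold. This was Emb (ENSMUSG00000021728, chromosome 13, 117208536 to 117274415, plus strand), embigin, which like basigin escorts monocarboxylate transporters to the membrane. Emb was at 4.66 and 4.77 CPM in Control and 9.35 and 12.2 CPM in NT4, with no overlap. The fitted log2 fold change of Emb was 1.19 (SE 0.22), at an unadjusted p of 0.00235 and an adjusted p above 0.99 in edgeR's quasi-likelihood test. The call for Emb also depended on the tool. Its unadjusted p was 5.06e-05 by DESeq2's Wald test, low enough to be among the 62 genes called there after adjustment. By edgeR's exact test it was 0.000169, too high to be among the 57 genes called there. Without NT4 2 the log2 fold change of Emb was 0.99, which no longer passed the fold of 2, and without each other library it was 1.17 to 1.36. The sum of theca and stroma markers was likewise higher in both NT4 libraries, and its part in the Emb difference was not tested. The most abundant gene of this list per length was Pdp1, the phosphatase that switches pyruvate dehydrogenase back on, at 81.7, 73.5, 87.1 and 60.3 CPM, though not with the longest transcript as the length.

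The 18 genes of the tricarboxylic acid cycle had a median log2 fold change of 0.03, with Sdhd, an anchor of succinate dehydrogenase, the most abundant per length at 137, 148, 146 and 160.5 CPM, an order of the mean over libraries that did not hold in Control 2 or, likewise, with the longest transcript. The 8 pentose phosphate genes, led on that mean, though not in NT4 2, by transketolase Tkt at 530, 538, 492 and 545 CPM, had a median of 0.01. The 15 glycogen and gluconeogenesis genes had a median of 0.09 and were led by the glycogen phosphorylase Pygb at 299.9, 292, 277 and 272 CPM. The 9 genes of the shuttles that carry reducing equivalents into the mitochondrion had a median of −0.09 and were led by Mdh1 at 305, 282, 222 and 319 CPM. None of these 4 lists held a gene that met the criterion.

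A further 22 genes are known to respond to or regulate the hypoxia-inducible factor, which also drives many glycolytic genes. Of these, 18 were higher in NT4, where 51% of all genes tested were, and 0 met the criterion. Their median log2 fold change was 0.11, and in most of the 22 the groups overlapped. The median log2 difference of this list was 0.08 from Control 1 to Control 2 and 0.29 from NT4 1 to NT4 2. Its direction without NT4 2 is not given here, and the part of that library in the 18 was not tested. The library numbered 2 was above the library numbered 1 in both groups in 15 of these 22, in 12 of the 18 tricarboxylic acid cycle genes and in 7 of the 8 pentose phosphate genes, where 31.8% of all genes tested were. The most abundant of the 22 per length was Plod2, a collagen lysyl hydroxylase, at 481, 504, 494 and 518 CPM. These lists hold genes with related roles that may share control, so their members are not independent of each other.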

How the data were processed

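Bulk RNA of mouse GCs was measured in 2 NT4 and 2 Control libraries, grouped by their labels. By their methods, the authors trimmed reads with Cutadapt, mapped them with HISAT2 (the processing notes name mm10 and edgeR) and used StringTie and ballgown to assemble and quantify transcripts. What was deposited are expected counts per gene, whole numbers not normalized by the authors. Whether counting used strand, and how reads that map to several copies were assigned, is not given in the sources used here. Low counts pile up at multiples of 4, so 1 read pair was taken as 4 counts.

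The 35 genes, the other lists and the tests were chosen with earlier results of these data known. All 35 are named with values. Genes of the neighbouring lists are named if they met the study's criterion or were the most abundant per length, and copies if their count exceeded 5% of the member's. Marker genes were not named by this rule. Among them the endothelial marker Tek met the criterion (0.159, 0.190, 0.946 and 0.441 CPM, log2 fold change 1.97). Pfkfb1, Pfkfb4, Amh, Amhr2, Kitl and Tek were named outside this rule, after their values were seen. The groups were compared with the two-sided quasi-likelihood test of edgeR 4.0.16 in R 4.3.3 (TMM factors, default filter, group alone), adjusted by Benjamini-Hochberg over 19259 genes. CPM used TMM library sizes, and values per length used the union of exons in GENCODE release M21 (GRCm38). Copies were found with blastn 2.17.0 (90% identity, 300 bases, same strand). Ratios were compared by exact permutation of the 4 libraries.

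The alternatives were DESeq2 1.42.0 size factors and Wald test, upper-quartile factors, library totals, no filter, a filter at 1 CPM in 2 libraries, edgeR's exact test, limma 3.58.1 voom, a replicate block, counts divided by 4, overlapping genes or copies summed, protein-coding genes only, another length and leaving out each library. The sum of copies by sequence was chosen after seeing the data. The code was tested on simulated data. A comparison of isozyme proteins had been planned and was not made.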

Additional observations from a re-analysis of the deposited data

How the results depend on the processing

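With 2 libraries against 2, no permutation of the groups can fall below a p of 0.333, and genes at a few CPM (Slc2a3, Eno2, Slc16a7) rest on few read pairs. The count of 0 members past an adjusted p of 0.05 became 1, Pfkfb3, by DESeq2's Wald test (adjusted p 2.14e-05) and by the exact test of edgeR (0.00132), which called 0.254% and 0.296% of all genes, and stayed 0 in the other alternatives. Of these, 3 called other genes, namely no filter (0.0369% of all genes), without Control 1 (0.0588%) and without Control 2 (0.183%). The 1 member meeting the study's criterion became 0 without NT4 2, so leaving out a library gave 0 to 1. The 2 members with an unadjusted p under 0.05 became 1 with no filter, with the CPM filter, in the DESeq2 Wald test, in the exact test, with protein-coding genes only and after dividing counts by 4, where 1.97%, 1.8%, 1.94%, 2.25%, 1.77% and 1.88% of all genes lay under 0.05. Leaving out a library gave 1 to 11, the 11 arising without NT4 1 (4.24% of all genes). With the replicate block 0 members passed the adjustment, the unadjusted count was 4 (Pfkfb3, Pgk1, Eno2 and Pdk1) and 580 of all genes lay under 0.05. The deviations of same-numbered libraries correlated at 0.148, the labels state no pairing, and 2 numbers cannot show one. The members' median of 0.12 ranged from −0.051 (without NT4 2) to 0.24 when a library was left out. Apart from leaving out libraries, 494 fold changes of members under an alternative kept their direction and call, 8 reversed and 2 (Pfkfb3) gained a call. Gapdh reversed to 0.18 with copies summed by sequence, and Mpc2 to −0.0019 with library totals. Pdk3 reversed to −0.0017 with DESeq2 size factors, −0.0022 with upper-quartile factors, −0.019 with library totals, −0.0028 with the CPM filter, −0.0053 with protein-coding genes only and −0.00060 after dividing counts by 4. Without one library at a time, 38 of the members' fold changes reversed, 20 of them without NT4 2. The log2 ranges of these genes were −0.021 to 0.27 for Slc2a1, −0.068 to 0.47 for Hk1, −0.13 to 0.090 for Hk2, −0.0035 to 0.35 for Gpi1, −0.096 to 0.52 for Pfkl, −0.11 to 0.46 for Pfkp, −0.18 to 0.29 for Aldoa, −0.89 to 0.13 for its second identifier (Aldoa_ENSMUSG00000114515), −0.10 to 0.72 for Aldoc, −0.13 to 0.61 for Tpi1, −0.36 to 0.11 for Gapdh, −0.16 to 0.43 for Pgam1, −0.15 to 0.41 for Eno1 and −0.093 to 0.41 for Pkm. They were −0.11 to 0.62 for Ldha, −0.076 to 0.15 for Ldhb, −0.062 to 0.047 for Slc16a1, −0.16 to 0.86 for Slc16a3, −0.70 to 0.20 for Slc16a7, −0.041 to 0.34 for Bsg, −0.20 to 0.28 for Mpc1, −0.15 to 0.17 for Mpc2, −0.018 to 0.25 for Pdhb, −0.13 to 0.094 for Dld, −0.054 to 0.21 for Pdk2 and −0.089 to 0.081 for Pdk3. The cause of these changes was not tested.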
